A study of Aedes aegypti with 7 samples.

Results

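AGO1 CLIP peaks that the authors' annotation places in 5′ UTRs, the stretch of a messenger RNA ahead of the coding sequence, were examined in the fat body of the yellow fever mosquito Aedes aegypti. All rows of the deposited peak table with that annotation class were taken, which gave 2229 peaks of 100836 in all. The tissue came from adult females of the UGAL/Rockefeller strain in 2 groups of 3 libraries, one at 72 h post eclosion (PE, before blood feeding) and one at 24 h post blood meal (PBM). Per the labels' protocols, females 3 or 4 days after eclosion counted as 72 h PE, and mosquitoes of the same cage were fed blood afterwards. Sliced tissue was exposed to 900 mJ/cm2 of ultraviolet light, which links proteins to the RNA they touch, and AGO1 was then pulled down with an antibody. The groups share strain, sex and tissue, and no unfed females of the later age enter the comparison, so the blood meal and age cannot be told apart. The design text calls the 3 libraries of each group independent biological replicates, and every n = 3 below rests on that statement.

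AGO1 is the Argonaute protein that carries microRNAs in insects. It is guided by the microRNA to partly complementary sites in messenger RNAs, which lowers their translation or stability, and the best-known sites lie in 3′ UTRs. The 5′ UTR is the path that the small ribosomal subunit scans to reach the start codon, and elements in it often set how well a message is translated. The female fat body stores nutrients before blood feeding and makes yolk proteins after it. Where the AGO1 count of a gene changes, the change may come from AGO1 occupancy or from the amount of the RNA, and in this bulk tissue fewer cells of a type and less RNA per cell cannot be told apart.

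Libraries held 69424 to 132758 counts over all peaks, and the column explanations deposited with the table describe a count as a barcode. Vitellogenin-A1 (AAEL010434), the yolk protein precursor, had 30, 68 and 85 coding counts at 72 h PE and 1899, 2314 and 1678 at 24 h PBM, which matches the labels of the groups. Markers of other tissues, summed over all annotation classes, gave 5270 to 7000 CPM (counts scaled to a common library size) for 69 muscle genes at 72 h PE and 5900 to 11900 at 24 h PBM. They gave 127 to 266 and then 106 to 381 for 13 gut digestion genes, 1090 to 1190 and then 1880 to 2900 for 81 neural genes, and 289 to 340 and then 423 to 830 for 24 cuticle genes. The 3 ovary genes gave 0 to 33.2 and then 119 to 3720, and vitelline membrane protein 15a-1 (AAEL013027) alone had 8, 26 and 181 coding counts at 24 h PBM. The 24 h PBM replicate 3 thus stood apart in that eggshell gene, and the part of other tissues in the results below was not tested.

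The 5′ UTR peaks made up 2.21% of all peaks and 1.71% of all counts, 9835 of 575708. Libraries held 1265, 2201 and 1398 of these counts at 72 h PE, which is 1.51% (95% Wilson interval 1.43 to 1.59), 2.05% (1.97 to 2.14) and 2.01% (1.91 to 2.12) of their totals. At 24 h PBM they held 1842, 1478 and 1651, or 1.39% (1.33 to 1.45), 1.63% (1.55 to 1.72) and 1.80% (1.71 to 1.88). The groups overlapped, since 72 h PE replicate 1 lay within the range of the 24 h PBM libraries. The mean share was 1.86% ± 0.303 (SD, n = 3) at 72 h PE and 1.61% ± 0.206 at 24 h PBM, a difference of -0.253 percentage points with a two-sided exact permutation p of 0.3. With 3 libraries against 3 the smallest p this test can give is 0.1. Taken by replicate number the share was lower at 24 h PBM in 3 of 3 pairs, and the paired exact permutation p was 0.25, the smallest that 3 pairs can give. The intervals cover counting error only.

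Set against the other parts of messenger RNAs, the 5′ UTR share separated the groups, but not when all counts of 3 genes were left out. Of the counts in 5′ UTR, coding and 3′ UTR peaks together, 5.84%, 6.15% and 6.15% lay in 5′ UTR peaks at 72 h PE and 4.35%, 4.74% and 4.80% at 24 h PBM. The means were 6.05% ± 0.175 and 4.63% ± 0.244 (n = 3 each), a difference of -1.42 percentage points at the smallest exact permutation p of 0.1. The share of coding peaks in all counts was 23.3% ± 3.25 at 72 h PE and 28.8% ± 2.15 at 24 h PBM. When all counts of vitellogenin-A1, AAEL006138 and AAEL006126, whose coding counts rose, were left out, an alternative chosen after seeing the data, the same share was 5.90%, 6.19% and 6.25% and then 5.58%, 6.62% and 6.28%. The groups then overlapped, with a difference of 0.0464 percentage points (exact permutation p = 0.8). In all counts, the 5′ UTR share without those 3 genes was 1.86% ± 0.299 and then 1.48% ± 0.261, with overlap (exact permutation p = 0.3).

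The summed level of all 5′ UTR peaks on a scale of counts in genes gave another order. In CPM after trimmed mean (TMM) scaling it was 17900, 24500 and 23200 at 72 h PE and 24400, 29200 and 31500 at 24 h PBM, higher in each pair and overlapping between the groups by 1 library. AAEL006126, the gene with the most 5′ UTR counts, made up much of that rise. Without its 5′ UTR the levels were 17900, 24300 and 23000 and then 18100, 24300 and 25200, with means of 21700 ± 3400 and 22500 ± 3890. The direction of the 5′ UTR signal as a whole therefore depended on the scale. Leaving out AAEL006126 changed the size of the difference on both scales, but not the direction of the means.

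Most 5′ UTR peaks were thinly covered. The median peak held 2 counts over the 6 libraries, 1054 peaks (47.3%) held a single count, and 1590 (71.3%) had counts in 1 library only. Counts in all 6 libraries were found for 42 peaks (1.88%), and 128 (5.74%) held 10 or more. Coding peaks were much the same, with a median of 2 and 2.26% in all 6 libraries, and 3.28% of 3′ UTR peaks reached all 6. Per library, 476, 849 and 601 of the 5′ UTR peaks had a count at 72 h PE and 468, 477 and 567 at 24 h PBM. Counts at 72 h PE only were seen for 1034 peaks and at 24 h PBM only for 706, but with so few counts per peak most of these cannot be told from incomplete sampling.

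The 5′ UTR peaks were short. Their deposited length, which is the end position minus the start, had a median of 24 bases (quartiles 19 and 34, range 1 to 150). Coding peaks had the same median and quartiles, 3′ UTR peaks a median of 23 and intron peaks one of 22. Length went with coverage, from a median of 22 bases for the peaks of 1 count to 25 for 2 to 3 counts, 33 for 4 to 9 and 42 for 10 to 29. The 33 peaks of 30 or more counts had a median of 34 bases and held 3801 counts, 38.6% of all counts in 5′ UTR peaks. A single length stood out, since 144 peaks measured exactly 46 bases while 15 measured 45 and 29 measured 47. The same length was the most frequent in that range for coding peaks, with 1612 of 46 bases against 87 of 45.

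**Figure D1:**
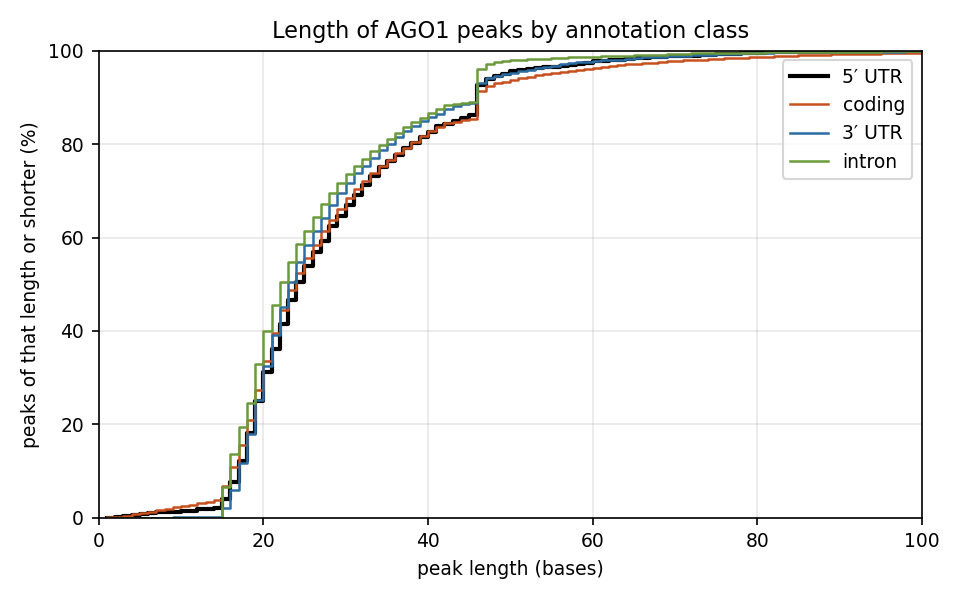
Cumulative share of peaks (y axis, %) up to each deposited peak length (x axis, bases) for 5′ UTR, coding, 3′ UTR and intron peaks. The 5′ UTR curve runs along the coding curve, with a median of 24 bases for both, and all 4 curves step up at 46 bases.

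The cumulative plot of peak lengths shows nearly the same distribution for 5′ UTR and coding peaks. The longest 5′ UTR peak, 150 bases, lay in the gene for fatty acid synthase (AAEL001194) at supercont1.24:920262-920412 on the minus strand of the AaegL3 assembly, with 6, 22 and 24 counts at 72 h PE and 5, 10 and 8 at 24 h PBM. It was followed by peaks of 114 bases in elongation factor 1 gamma (AAEL011288), 108 in paramyosin (AAEL010975), a core protein of invertebrate thick filaments, and 107 in S-adenosylmethionine decarboxylase (AAEL001176), an enzyme of polyamine synthesis, and one of 94 bases in AAEL018335. The shortest, of 1 or 2 bases, lay in a ubiquinone binding protein (AAEL005143), a lysosomal aspartic protease (AAEL006169) and ribosomal protein S2 (AAEL010168), with 1, 3 and 1 counts. Some signal was cut into neighbouring entries, since 83 peaks (3.72%) had another 5′ UTR peak of the same gene within 1 base of their edge and 1 had a coding peak there.

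The peaks belonged to 1267 genes, of which 732 carry a description in the deposited table. A single 5′ UTR peak was listed for 798 genes (63.0%) and 2 for 259, and the most, 17, for AAEL017248. Coding peaks were also listed for 1044 of the genes and 3′ UTR peaks for 701, while 100 had 5′ UTR peaks only. In the 1267 genes together, 10.6% of 92812 counts lay in 5′ UTRs. All 1904 peaks in genes with coding peaks were on the strand of those coding peaks. The nearest coding peak downstream in the genome was a median of 3560 bases away (quartiles 321.5 and 23244, introns included, 1903 peaks), and 150 peaks (7.88%) lay within 100 bases of one. None of the 201 miRNA precursors predicted by the authors that are analysed here overlapped a 5′ UTR peak.

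Counts were concentrated in few genes. AAEL006126 held 11.1% of all 5′ UTR counts, the 10 strongest genes 29.7% (2922 counts), and 50 genes held 50% of them. At least 30 counts were reached by 46 genes. In 16 of these the 5′ UTR held the majority of the gene's counts, and the median share over the 46 was 41.2%. All 163 counts of AAEL017248 lay in its 5′ UTR, as did 95% of those of AAEL001561, 90.6% of AAEL004547, 87.3% of AAEL007092, 81.0% of the imaginal disc growth factor gene AAEL001965, 78.6% of the pyridoxine kinase gene AAEL009601 and 72.4% of the ornithine decarboxylase gene AAEL007880. Fatty acid synthase stood at the other end with 7.32% of 2884 counts, and AAEL006126 with 6.82% of 15992. Of the genes just named, AAEL017248, AAEL001561, AAEL004547, AAEL007092 and AAEL006126 carry no description in the table, and no name or role is given to them here.

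**Figure D2:**
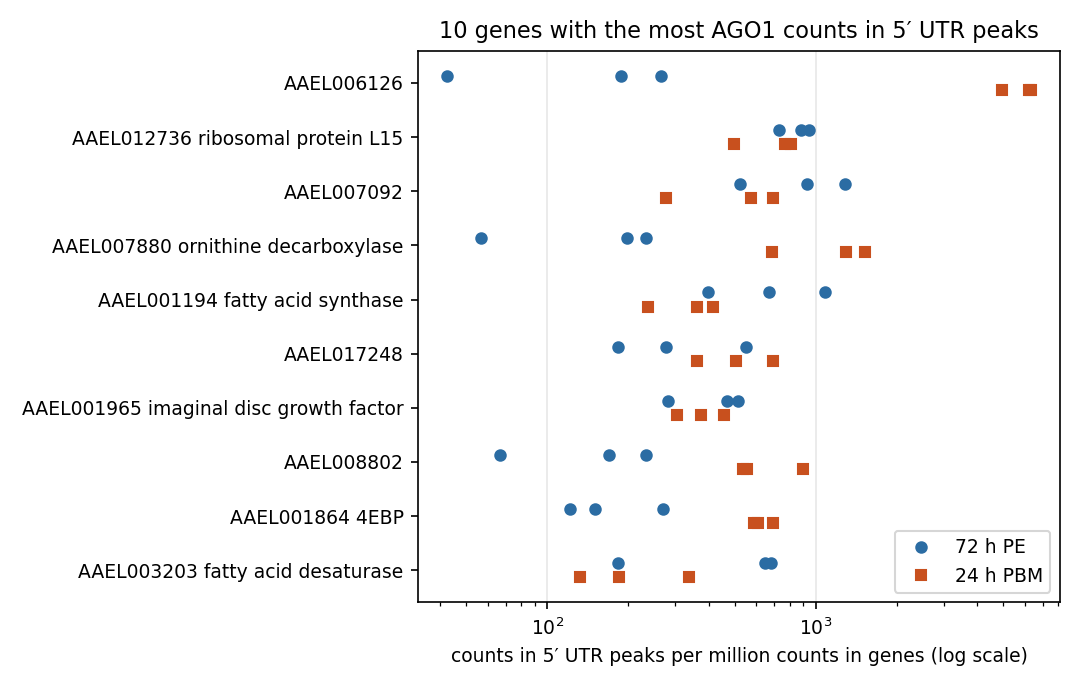
Level of 5′ UTR peaks in CPM of counts in genes (x axis, log scale) for the 10 genes with the most such counts, 1 point per library (circles 72 h PE, squares 24 h PBM). The groups do not overlap for AAEL006126, ornithine decarboxylase, AAEL008802 and 4EBP, and overlap for the other 6. How many of all tested sums lack overlap is not given here, so the count describes these 10 genes only.

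The plot of the 10 strongest genes shows the values in each library for 5′ UTR sums per gene, in CPM of counts in gene peaks after TMM scaling. Changes between the groups were tested with edgeR's quasi-likelihood F test on all peaks, and on the counts of each gene summed by annotation class. The threshold was a Benjamini-Hochberg adjusted p of 0.05 over the whole table. Of all peaks, 948 had enough counts to be tested and 36.2% of them were called, 27.1% as higher at 24 h PBM and 9.07% as lower. Only 18 of the 2229 5′ UTR peaks could be tested, and 8 were called higher and 2 lower. Of the sums per gene and class, 655 could be tested and 24.9% were called, 11.8% higher and 13.1% lower. The 5′ UTR sums of 21 of the 1267 genes could be tested, and 7 were called higher and 4 lower. The median log2 change was 0.39 over the 18 peaks against 0.20 over all tested peaks, and -0.09 over the 21 sums against -0.06 over all tested sums. These genes entered the test because of their counts and do not stand for the rest. The filter asks for enough counts in as many libraries as a group holds, so a sum or peak can enter through 1 group alone. The sums of AAEL006834 and AAEL001561 entered through 24 h PBM alone. Those of AAEL009995, AAEL013484, AAEL013904, AAEL005832 and AAEL009506 entered through 72 h PE alone. Of the called peaks, those of AAEL006126 at 39436 and 39530 and of AAEL001561 entered through 24 h PBM alone. The called peaks of AAEL013904 and AAEL009506 entered through 72 h PE alone. For all of these the direction of change is tied to how they entered. Scaling by library totals in place of TMM moved the median log2 change of all gene sums by -0.62 and of all peaks by -0.26, and log2 changes below are relative to the TMM scale.

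AAEL006126 rose most. Its 4 peaks in the 5′ UTR summed to 3, 17 and 16 counts at 72 h PE and to 477, 249 and 328 at 24 h PBM, and every 24 h PBM library lay far above every 72 h PE library. The level was 166 ± 114 CPM (SD, n = 3) at 72 h PE and 5830 ± 786 at 24 h PBM, a log2 change of 5.15 (SE 0.46, 35.5-fold, adjusted p = 6.35e-09 by edgeR). The 3 strong peaks lay at supercont1.191:39394-39435, 39436-39465 and 39530-39560 on the plus strand, 41, 29 and 30 bases long, and ranked among the 4 with the most counts of all 5′ UTR peaks. The first of them had 1, 7 and 10 counts at 72 h PE and 188, 112 and 188 at 24 h PBM. The log2 changes of the 3 peaks were 4.73 (SE 0.58), 4.90 (SE 0.60) and 4.95 (SE 0.60). They were alike within their errors, and the last of the 3 ended where a coding peak began.

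**Figure D3:**
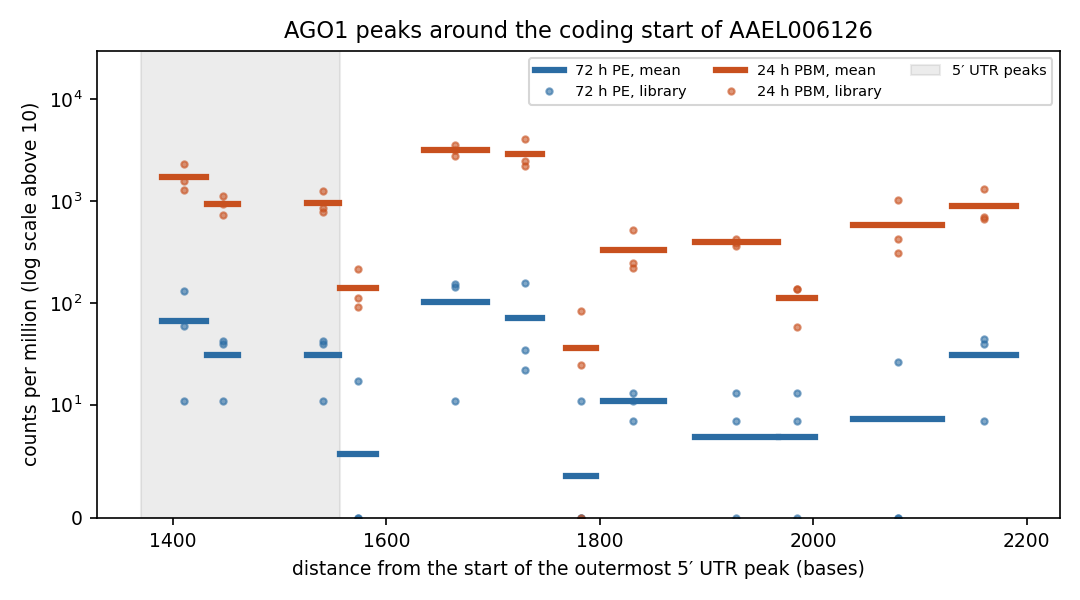
Level of AGO1 peaks (y axis, CPM, log scale above 10) by distance from the outermost 5′ UTR peak of AAEL006126 (x axis, bases), with bars for group means over the width of each peak and points for libraries. The shaded stretch holds the 3 strong 5′ UTR peaks, and the 24 h PBM means lie above the 72 h PE means in every peak drawn.

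The plot of peaks around the coding start of AAEL006126 shows that the signal ran on from the 5′ UTR into the coding sequence. The coding sum of the gene went from 73, 132 and 165 counts at 72 h PE to 6047, 3919 and 4368 at 24 h PBM, a log2 change of 5.53 (SE 0.33), and its 3′ UTR sum changed by 5.47 (SE 0.65). The 5′ UTR thus changed by a size like that of the rest of the message, and the test of that difference within the gene gave -0.36 on the log2 scale (unadjusted p = 0.472, edgeR).

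Ornithine decarboxylase, the enzyme that makes putrescine and sets the pace of polyamine synthesis, had the next largest 5′ UTR count among the genes that rose. Its 8 peaks summed to 4, 21 and 12 counts at 72 h PE and 52, 77 and 68 at 24 h PBM. The lowest 24 h PBM library was above the highest 72 h PE library. The level was 163 ± 93.9 CPM and then 1170 ± 431 (n = 3 each), a log2 change of 2.82 (SE 0.51, 7.05-fold, adjusted p = 0.00021 by edgeR). A single peak of 21 bases at supercont1.287:18172-18193 on the minus strand held 179 of the 234 counts and rose with 3, 7 and 10 counts against 31, 66 and 62 (log2 change 3.03, SE 0.66, adjusted p = 0.000611). The coding counts of the gene, 0, 15 and 8 at 72 h PE and 5, 13 and 12 at 24 h PBM, overlapped between the groups (log2 change 0.81, SE 0.74, adjusted p = 0.439). The within-gene test did not separate the 2 parts, with 0.49 on the log2 scale for the 5′ UTR against the gene as a whole (unadjusted p = 0.383, edgeR), and the 5′ UTR itself makes up most of that whole.

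Another enzyme gene that rose was glutamate semialdehyde dehydrogenase (AAEL006834), of proline metabolism. Its 5′ UTR had 0, 5 and 3 counts at 72 h PE and 22, 12 and 26 at 24 h PBM, with no overlap. The log2 change was 3.25 (SE 0.72, adjusted p = 0.00163 by edgeR), and its coding (1.68), intron (1.88) and 3′ UTR (4.07) sums were called higher as well. By contrast 3-hydroxyisobutyrate dehydrogenase (AAEL013904), an enzyme of valine breakdown, fell. Its single 5′ UTR peak, at supercont1.957:73141-73170 on the minus strand, had 23, 35 and 17 counts at 72 h PE and 3, 3 and 8 at 24 h PBM, and no 24 h PBM library reached the 72 h PE range. The sum changed by -2.04 (SE 0.61, adjusted p = 0.0152) and the peak by -2.35 (SE 0.66, adjusted p = 0.00648, edgeR). The 5′ UTR held 74.8% of the 119 counts of the gene, and its coding sum had too few counts for the test. The call of the sum was lost without 72 h PE replicate 2 (adjusted p = 0.0729), 24 h PBM replicate 1 (0.111) or 24 h PBM replicate 2 (0.105), and that of the peak without 24 h PBM replicate 2 (0.0654).

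Among genes of translation, the eukaryotic translation initiation factor 4E binding protein (4EBP, AAEL001864), which holds back cap-dependent initiation by binding eIF4E, rose. Its 5′ UTR had 19, 11 and 9 counts at 72 h PE and 46, 35 and 31 at 24 h PBM, with no overlap between the groups. The level was 180 ± 78.0 CPM and then 630 ± 53.8, a log2 change of 1.81 (SE 0.47, adjusted p = 0.00625 by edgeR), and the peak at supercont1.44:1480981-1481019 changed by 1.51 (SE 0.56, adjusted p = 0.0379). Both calls depended on the libraries used. Without 72 h PE replicate 2 the adjusted p of the sum was 0.0743 and without 72 h PE replicate 3 it was 0.0543. Its coding sum had a log2 change of 1.17 (SE 0.46), which was not called.

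Ribosomal proteins S20, L15 and P2 had enough 5′ UTR counts for the test. The 72-base peak of 40S ribosomal protein S20 (AAEL009506) at supercont1.401:439514-439586 on the plus strand fell, with 25, 15 and 11 counts at 72 h PE and 5, 4 and 6 at 24 h PBM. The groups did not overlap, and the log2 change was -1.78 (SE 0.63, adjusted p = 0.0305 by edgeR). That call was lost without any 1 of 5 libraries, with an adjusted p of 0.0555 to 0.183, and the same counts tested as a gene sum gave -1.46 (SE 0.61, adjusted p = 0.0866). The 5′ UTR held 7.85% of the 841 counts of S20. The coding sum of S20 had 13, 26 and 6 counts and then 56, 5 and 5, with overlap (0.74, SE 0.66, adjusted p = 0.436). The intron sum of S20 changed by -0.51 (SE 0.42) and was not called. Ribosomal protein L15 (AAEL012736) had the second largest 5′ UTR count of all genes, nearly all of it in a 78-base peak with 62, 81 and 44 counts at 72 h PE and 61, 39 and 26 at 24 h PBM. Its peak changed by -0.60 (SE 0.43, adjusted p = 0.337) and its sum by -0.30 (95% interval -1.07 to 0.47), while its coding sum was called lower (-1.59, SE 0.50, adjusted p = 0.0221). The 5′ UTR of ribosomal protein P2 (AAEL014583) had 8, 19 and 13 counts and then 14, 12 and 7, a log2 change of 0.04 (95% interval -1.04 to 1.12), and its sign turned with library total scaling (-0.58).

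Actin (AAEL001673), the protein of thin filaments and the cytoskeleton, rose. Its single 5′ UTR peak at supercont1.39:1695891-1695919 on the minus strand had 6, 10 and 9 counts at 72 h PE and 18, 36 and 41 at 24 h PBM, with no overlap. The sum changed by 2.32 on the log2 scale (SE 0.55, 4.99-fold, adjusted p = 0.00289 by edgeR) and the coding sum of the gene by 2.12 (SE 0.58, adjusted p = 0.00944). The same 5′ UTR counts tested as a peak gave 1.99 (SE 0.60, adjusted p = 0.0108). That call was lost without 72 h PE replicate 2 (adjusted p = 0.0654), without 24 h PBM replicate 3 (0.0918) and with no filter (0.369). The summed level of the 69 muscle markers, given above, overlapped between the groups and was highest at 24 h PBM, and its part in the actin result was not tested.

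Of the genes without a description, AAEL008802 and AAEL001561 also rose. AAEL008802 had 12, 21 and 4 counts at 72 h PE and 68, 27 and 29 at 24 h PBM (log2 change 2.05, SE 0.50, adjusted p = 0.00382 by edgeR), and without 72 h PE replicate 3 its adjusted p was 0.0508. Tested as a peak, the same counts gave 1.74 (SE 0.58, adjusted p = 0.0205). The peak's call was lost without 72 h PE replicate 3 (0.13), 24 h PBM replicate 1 (0.0725) or 24 h PBM replicate 3 (0.0556), and with no filter (0.369). AAEL001561 had 3, 9 and 5 and then 24, 12 and 23 (2.12, SE 0.58, adjusted p = 0.0093), a call lost only with no filter (0.133). Its peak at supercont1.36:1737267-1737308 on the minus strand changed by 1.82 (SE 0.62, adjusted p = 0.0255). That call was lost without 24 h PBM replicate 3 or any single 72 h PE library (0.0617 to 0.177). It was also lost with library totals (0.0525) and with no filter (0.369). In both genes every 24 h PBM count lay above every 72 h PE count. Nearly all signal of AAEL001561 was in the 5′ UTR, with 2 counts in coding peaks over the 6 libraries.

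The other genes whose 5′ UTR fell did so from low counts. The putative transmembrane protein AAEL009995 had 9, 16 and 11 counts at 72 h PE and 3, 2 and 2 at 24 h PBM (log2 change -2.06, SE 0.59, adjusted p = 0.013 by edgeR). Its few coding counts did not fall, with 0, 2 and 0 and then 3, 3 and 1. AAEL013484, which has no description, had 9, 17 and 11 and then 2, 2 and 3 (-2.07, SE 0.61, adjusted p = 0.0141), and its coding sum fell by 4.92 on the log2 scale. AAEL005832, described as programmed cell death, had 11, 32 and 22 and then 1, 8 and 3 (-2.04, SE 0.69, adjusted p = 0.0308), and its coding sum fell by 2.40. The groups did not overlap in counts for any of the 3, but they did for AAEL005832 in CPM. The calls of AAEL009995 and AAEL013484 were lost in each of the 5 fits without 1 library that tested them (adjusted p 0.065 to 0.208 and 0.0637 to 0.168) and with DESeq2 (0.107 for both). The call of AAEL005832 was lost in 4 of 6 such fits (0.115 to 0.199) and with DESeq2 (0.068).

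Several strong 5′ UTRs did not pass the test. The 28-base peak of AAEL007092 at supercont1.235:1213370-1213398 on the minus strand, which ranked 5 among all 5′ UTR peaks by counts, had 37, 79 and 77 counts at 72 h PE and 21, 33 and 28 at 24 h PBM. The groups did not overlap, at 695 ± 299 CPM and then 300 ± 110, with a log2 change of -1.22 (SE 0.49, adjusted p = 0.0574 by edgeR). With the replicate number as a block the adjusted p was 0.0112, with library totals 0.0198, and without 72 h PE replicate 1 it was 0.0304. The other alternatives left it above 0.05, from 0.069 with DESeq2 size factors to 0.326 without 72 h PE replicate 3 and 0.369 with no filter. Summed with the gene's other 5′ UTR peaks, the groups overlapped in CPM (log2 change -0.84, SE 0.45, adjusted p = 0.186 by edgeR). AAEL017248 had 13, 25 and 33 and then 38, 35 and 19 counts (0.64, 95% interval -0.30 to 1.58), AAEL004547 had 22, 40 and 21 and then 25, 16 and 21 (-0.09, -0.96 to 0.78), the imaginal disc growth factor gene had 33, 46 and 17 and then 23, 19 and 24 (-0.17, -1.05 to 0.71), and pyridoxine kinase, which makes the active form of vitamin B6, had 9, 19 and 14 and then 14, 19 and 24 (0.82, -0.24 to 1.87). The groups overlapped in all 4. Coding counts of pyridoxine kinase went the other way, with 6, 13 and 5 and then 1, 1 and 0, too few for the test.

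**Figure D4:**
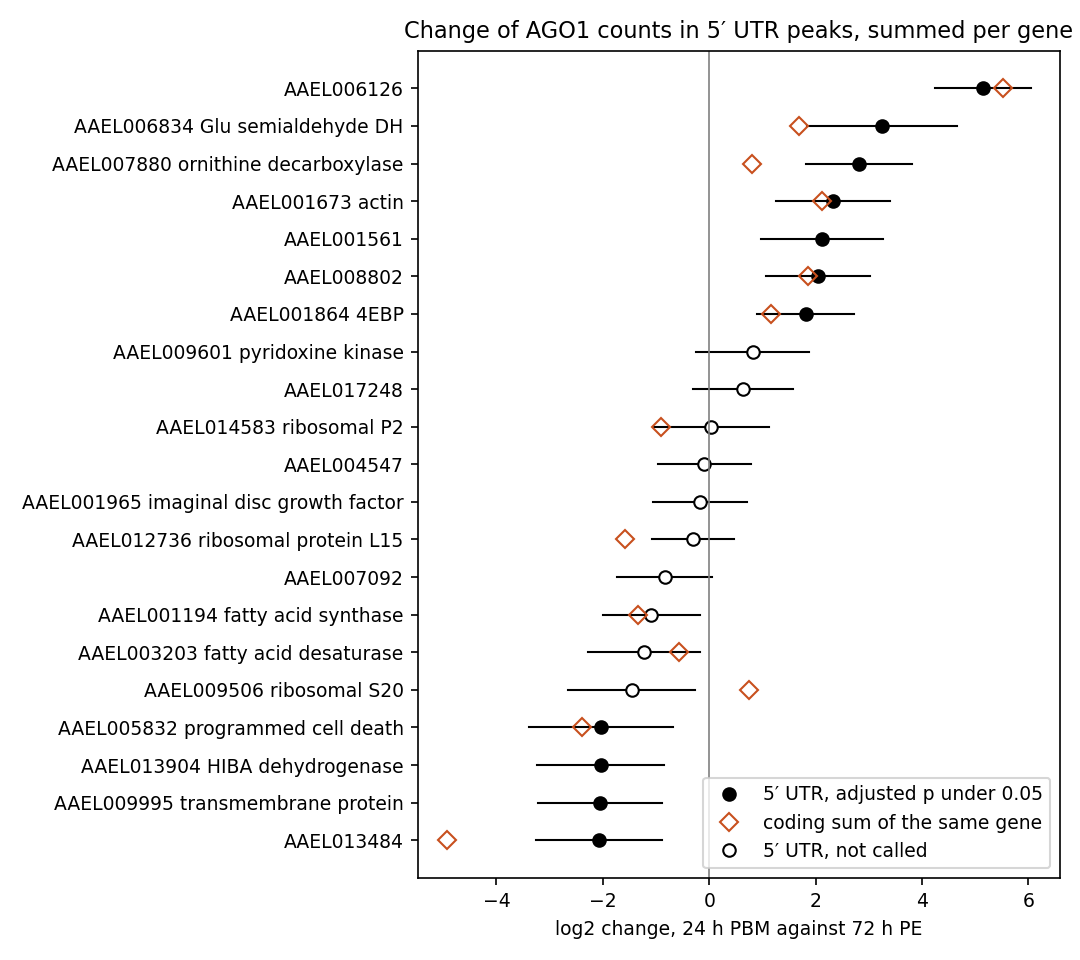
Log2 change at 24 h PBM against 72 h PE (x axis) of the 21 tested 5′ UTR sums, with lines for its 95% interval (n = 3 per group), filled where the adjusted p was under 0.05. Diamonds give the change of the coding sum of the same gene where it was tested, which lies on the same side of 0 as the 5′ UTR for all 8 called genes that have one. Coding sums of the other called genes had too few counts for the test. Among genes not called, the diamond lies on the other side for ribosomal proteins S20 (0.74 against -1.46) and P2 (-0.91 against 0.04).

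The plot of changes sets each 5′ UTR beside the coding part of its gene. A test of whether the 5′ UTR changed differently from its gene as a whole (edgeR's diffSpliceDGE) could be made for 13 of the genes and called none at an adjusted p of 0.05, as it called none (0%) of the 224 parts of genes tested in all, 6 of which had an unadjusted p under 0.05. The smallest unadjusted p among the 13 was 0.043, for fatty acid desaturase (AAEL003203, -1.02 on the log2 scale, adjusted p = 0.999), and it was the only one under 0.05. A p that misses the threshold does not show that a 5′ UTR and its gene changed alike.

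Gene groups were described by the sums of their 5′ UTR counts, on which no test was run. The 37 cytosolic ribosomal protein genes with a 5′ UTR peak, of 86 with any peak, held 160, 200 and 139 counts at 72 h PE and 114, 92 and 71 at 24 h PBM. Their summed level was 2270 ± 41.6 CPM and then 1560 ± 237, with no overlap, and their share of 5′ UTR counts was 10.3% and then 5.57%. Of 3 tested as gene sums with edgeR none was called in either direction, and 1 had an unadjusted p under 0.05. Scaled to library totals instead, the level was 1930 ± 70.1 CPM and then 882 ± 123, also with no overlap. The 17 translation factor genes summed to 420 ± 91.8 CPM and then 869 ± 36.1, also with no overlap, and 1 of 1 tested was called higher, namely 4EBP. Without 4EBP the other 16 genes held 13, 33 and 10 counts and then 19, 11 and 13 (239 ± 111 CPM and then 239 ± 18.7), and the groups overlapped. The ribosomal sum without its strongest gene, L15, was 1420 ± 151 CPM and then 869 ± 173, still with no overlap.

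**Figure D5:**
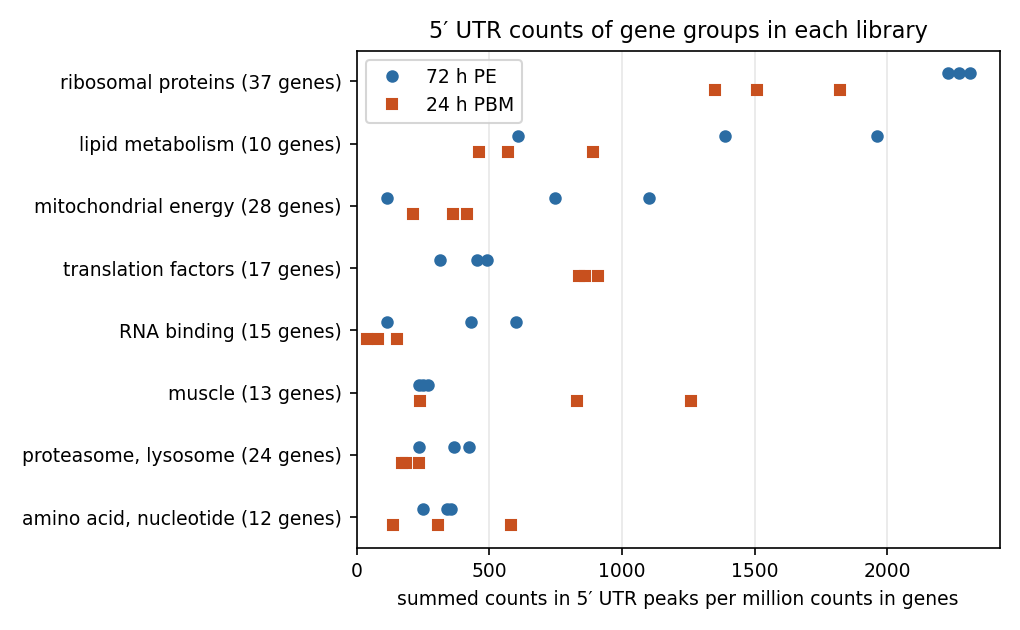
Summed level of 5′ UTR counts (x axis, CPM of counts in genes) of 8 gene groups, 1 point per library (circles 72 h PE, squares 24 h PBM). The groups of libraries are apart for ribosomal proteins, which are lower at 24 h PBM, and for translation factors, whose higher sum comes from 4EBP.

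The plot of gene groups shows that most other groups overlapped between the times or rested on single libraries. The 10 lipid metabolism genes held 43, 125 and 118 counts at 72 h PE and 35, 45 and 30 at 24 h PBM (1320 ± 679 CPM and then 641 ± 221), and the lower 72 h PE replicate 1 lay among the 24 h PBM libraries. Neither of the 2 tested with edgeR was called, though both had an unadjusted p under 0.05. Fatty acid synthase, which builds long-chain fatty acids, had 28, 60 and 65 and then 18, 21 and 19 counts in 13 peaks (log2 change -1.09, SE 0.47, adjusted p = 0.0947 by edgeR), and desaturase AAEL003203, which adds a double bond to them, had 13, 58 and 41 and then 14, 17 and 7 (-1.22, SE 0.53, adjusted p = 0.0993). Both were called lower without 72 h PE replicate 1 (adjusted p = 0.0477 and 0.0343) and with library totals (log2 change -1.72, 0.00651, and -1.84, 0.00969). Neither was called under any other alternative. Without 72 h PE replicate 3 the adjusted p was 0.428 and 0.331, and with no filter it was 0.57 for both. The coding sum of fatty acid synthase fell (-1.33, SE 0.30, adjusted p = 0.00189), as did its 3′ UTR sum (-1.44, adjusted p = 0.0329).

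The 28 mitochondrial energy genes gave 652 ± 498 CPM and then 330 ± 105, and none could be tested. The ADP,ATP carrier (AAEL004855), which exchanges ADP and ATP across the inner mitochondrial membrane, held most of their counts, with 1, 40 and 38 at 72 h PE and 10, 9 and 8 at 24 h PBM. The low 72 h PE replicate 1 therefore set the spread of the group. The 15 RNA binding genes held 8, 54 and 26 counts and then 6, 2 and 8, led by a DEAD box RNA helicase (AAEL004453) with 0, 13 and 4 and then 4, 0 and 2, and their groups overlapped. The 13 muscle genes held 19, 21 and 15 and then 18, 42 and 66 counts, where actin alone was tested and called. The 12 amino acid and nucleotide genes held 24, 32 and 15 and then 44, 7 and 16, of which glutamine synthetase (AAEL001887), which fixes ammonia into glutamine, had 8, 8 and 7 and then 27, 4 and 9. The 24 proteasome and lysosome genes held 30, 21 and 22 and then 14, 12 and 9 counts, which overlapped in CPM but not on library totals. None of the genes of these last groups other than actin could be tested. Scaled to library totals, the lipid, RNA binding and proteasome and lysosome sums were lower at 24 h PBM with no overlap, as the ribosomal sum was.

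Few 5′ UTR counts lay in the remaining groups, and no gene of them could be tested. The 17 secretory and chaperone genes held 16, 29 and 6 and then 8, 14 and 7 counts, and the 6 hormone pathway genes 8, 3 and 5 and then 7, 4 and 9, led by an ecdysone inducible protein (AAEL002130) with 0, 1 and 5 and then 3, 4 and 7. The insulin-like receptor (AAEL002317), which signals nutrient state, was the only gene of its list, with 1, 2 and 3 and then 1, 3 and 6. The 7 iron and redox genes held 4, 9 and 5 and then 18, 6 and 7, which overlapped on library totals but not in CPM. The secreted ferritin G subunit (AAEL007383), of an iron storage protein, had 0 counts in all 72 h PE libraries and 13, 2 and 2 at 24 h PBM, and the ferritin heavy chain gene AAEL007385 had 0, 6 and 0 and then 1, 2 and 1. The 4 neural genes had 0, 0 and 1 and then 12, 7 and 5 counts, while neural markers over all classes were also higher at 24 h PBM, and their part was not tested. The 5 genes of the carbohydrate list had 9 counts in all, the 3 cuticle genes 9, the 3 genes of the yolk and lipid carrier list 6, the 1 immune gene 3 and the 1 ovary gene 6, and no gut digestion gene had a 5′ UTR peak. The carbohydrate list leaves out hexokinase (AAEL009387), whose 5′ UTR had 2, 2 and 0 counts at 72 h PE and 11, 2 and 13 at 24 h PBM. The 3 genes of the yolk and lipid carrier list are all described as putative apolipoprotein D, a lipid carrier, at 0 to 95.3 CPM in any library, and no described yolk gene had a 5′ UTR peak. The whole list over all classes gave 708 to 1880 CPM at 72 h PE and 34400 to 53000 at 24 h PBM.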

How the data were processed

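The authors deposited counts of AGO1 CLIP-seq per peak and library for a common set of peaks, with annotation classes, on the AaegL3 assembly with the AaegL3.3 annotation, per the file headers and column explanations. Per the submitters' processing notes, R 3.1.2, bedtools 2.17.0, Bowtie2 2.2.3 and TopHat2 2.0.14 were used, with no role stated for any. No source used here states the settings of peak finding, and positions are printed as deposited, without a stated first base. The deposited read counts of predicted miRNAs were made by the authors with miRDeep2, per the file headers, and only their positions were used. The deposited total of each peak equals the sum over the 6 libraries. Peak finding on one common set means that a peak can be listed through the libraries of either group.

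Counts per peak, and counts summed by gene and annotation class (repeats and unannotated peaks left out), went into edgeR 4.0.16 (R 4.3.3) with TMM scaling, filterByExpr, robust quasi-likelihood fits without a block, and Benjamini-Hochberg adjustment at 0.05 over each whole table. CPM use the TMM library sizes. The standard error comes from the F statistic, and 95% intervals are ±1.96 SE. Shares were compared with a two-sided exact permutation test (SciPy 1.17.1). Same-numbered libraries deviated together, with correlations of 0.385, 0.224 and 0.317 over peaks and 0.282, 0.137 and 0.146 over gene sums. Other pairs gave -0.304 to 0.034 over peaks and -0.227 to 0.114 over gene sums. Deviations were taken from the mean of each group, which pulls these other values down. The labels state no pairing, so the replicate numbers may pair the libraries, and the block was run as an alternative. The fits were tested on simulated counts with known changes. There the false share among calls was above the 0.05 threshold for peaks and for gene sums. The within-gene test missed most of the known changes. Other alternatives were library totals, DESeq2 size factors, DESeq2 1.42.0, no filter, a minimum of 30 counts, and each library left out.

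The peaks and the 19 gene lists were chosen with earlier results of these data known. Lists were matched by gene description, and false matches were removed after reading the matched names. Named are the 10 genes and 5 peaks with the most counts, every called peak and sum, up to 3 of the strongest genes per list, and the longest and shortest peaks. No sequence is shown, since no genome of the AaegL3 build was used here.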

Additional observations from a re-analysis of the deposited data

How the results depend on the processing

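Low counts limit these results, since 18 of 2229 peaks and 21 of 1267 gene sums could be tested. The 5′ UTR sums of AAEL006126, AAEL007880, AAEL006834 and AAEL001673 passed the threshold under every alternative run. The counts of AAEL001673 tested as a peak did not, as given above. Without a filter on low counts, 5 peaks were higher and 0 lower, and 0 sums were lower. Library totals gave 8 lower sums, the minimum of 30 counts gave 1 (its 10 higher include 3 that reached it through 24 h PBM), and DESeq2 gave 1 lower peak and 1 lower sum. Without 1 library at a time, 4 to 8 peaks were higher and 0 to 5 lower, 5 to 9 sums were higher and 0 to 6 lower, and the within-gene test called 0. With the replicate block, 8 peaks were higher and 3 lower (AAEL007092 was added), and 7 sums were higher and 4 lower, which changed no other call. The difference in the share of all counts ranged from -0.428 to -0.144 percentage points without 1 library. It was -0.506 without all counts of AAEL006126 and -0.371 without those of AAEL006126, AAEL006138 and vitellogenin-A1, and 0.0464 over messenger RNA classes without those 3 genes, alternatives chosen after seeing the data. The direction of some log2 changes near 0 turned. That of the AAEL004547 sum was 0.01 with DESeq2 size factors and with DESeq2, 0.02 with the minimum of 30 counts, and -0.17 to 0.18 without 1 library. Left out 1 library at a time, the sums ranged from -0.40 to 0.17 for AAEL001965, from -0.41 to 0.07 for AAEL012736 and from -0.18 to 0.42 for AAEL014583, and the AAEL009601 peak from -0.01 to 0.82. The AAEL014583 sum was at -0.58 with library totals. The cause of these shifts was not tested.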

Other observations

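Hexokinase, AAEL010404 and AAEL018335 had 5′ UTR sums that did not pass the filter of the comparison above. They reached 30 counts in all through their counts at 24 h PBM, and no test of them is given. Hexokinase (AAEL009387), which phosphorylates glucose at the start of glycolysis, had 2, 2 and 0 counts at 72 h PE and 11, 2 and 13 at 24 h PBM. AAEL010404, which has no description, had 3, 4 and 2 and then 7, 14 and 15. AAEL018335, also without one, had 1, 0 and 0 and then 25, 5 and 2, most of them in 24 h PBM replicate 1.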
